A study of Rattus norvegicus with 12 samples.

Results

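The genes followed here are 10 genes of the endoplasmic reticulum (ER), most of them of its unfolded protein response. Atf6, Ern1 and Xbp1 sense stress or carry the signal, and Hspa5 and Hsp90b1 are chaperones. Sel1l, Syvn1, Herpud1 and Edem1 are degradation genes, and Creld1 encodes an ER membrane protein. The 10 genes were chosen by name, with earlier results of these data known. All 10 were found among the 17407 genes of the deposited table and were among the 12339 genes abundant enough to be tested. RNA was sequenced from pancreatic islets, the clusters of hormone cells in which beta cells make insulin, of Sprague-Dawley rat offspring at 15 weeks of age. In the GDM-HFS group the dam had gestational diabetes mellitus (GDM), induced with a diet rich in fat and sucrose (HFS, 45% fat), and the pup was weaned onto HFS for 12 weeks. GDM-LF pups had such dams and were weaned onto low-fat diet (LF, 10% fat). Lean-HFS pups had lean dams kept on LF and were weaned onto HFS, and Lean-LF pups had lean dams and were weaned onto LF. Each diet was given to 6 dams from 3 weeks of age, for 6 weeks before mating and then through pregnancy and suckling. GDM and the diet of the dam therefore cannot be told apart. Each group had 3 libraries. The sources used here give neither litter nor sex nor which dam a pup came from, so p-values measure only the spread between these libraries, part of which may be technical.

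The lumen of the ER is where secreted proteins, proinsulin among them, fold before they leave the cell. When unfolded protein builds up, 3 membrane sensors respond. ATF6 moves to the Golgi, is cut there and becomes a transcription factor for chaperone and degradation genes. IRE1, the product of Ern1, splices the Xbp1 message so that it encodes an active transcription factor, and PERK slows translation. Proteins that cannot be folded are led back to the cytosol and degraded, a route called ER-associated degradation (ERAD), in which the ubiquitin ligase HRD1 (Syvn1) works with its partner SEL1L. Beta cells depend on these pathways because they fold large amounts of proinsulin.

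The DNA element through which ATF6 acts is the ER stress response element (ERSE), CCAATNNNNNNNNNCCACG, and a shorter form, ERSE-II, reads ATTGG and CCACG with 1 base of any kind between them. Both were searched on both strands of RefSeq promoters of build GRCr8, which run from 250 bases before to 50 bases after each annotated start. RefSeq promoters were matched for 7 of the 10 genes. The ERSE was found in Hspa5, Hsp90b1 and Xbp1 and in 0.0657% of all 33469 promoters, and the ERSE-II was found in Herpud1 and in 0.0508% of all promoters. Only exact matches were counted, and the windows of the ERAD genes Sel1l, Syvn1 and Edem1 hold neither element. The 4 promoters that hold one are shown, those of the chaperone genes, Xbp1 and Herpud1, itself an ERAD gene. Each is printed 5′ to 3′ along its gene, with the fixed bases of the elements in capitals, at chr3:38452766-38453065 (plus strand), chr7:23012244-23012543 (minus strand), chr14:84604373-84604672 (plus strand) and chr19:10614658-10614957 (minus strand).
Hspa5: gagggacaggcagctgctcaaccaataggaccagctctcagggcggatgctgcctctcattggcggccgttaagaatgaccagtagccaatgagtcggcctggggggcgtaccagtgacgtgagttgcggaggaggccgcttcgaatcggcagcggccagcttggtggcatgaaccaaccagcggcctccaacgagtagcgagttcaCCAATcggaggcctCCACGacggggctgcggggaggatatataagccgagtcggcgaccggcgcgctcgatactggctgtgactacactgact
Hsp90b1: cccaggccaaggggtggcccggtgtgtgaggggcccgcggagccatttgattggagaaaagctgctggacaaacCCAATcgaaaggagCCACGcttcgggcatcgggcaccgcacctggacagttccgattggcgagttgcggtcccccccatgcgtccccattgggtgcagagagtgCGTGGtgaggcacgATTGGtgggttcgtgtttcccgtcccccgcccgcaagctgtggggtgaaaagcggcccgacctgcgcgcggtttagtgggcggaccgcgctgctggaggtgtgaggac
Xbp1: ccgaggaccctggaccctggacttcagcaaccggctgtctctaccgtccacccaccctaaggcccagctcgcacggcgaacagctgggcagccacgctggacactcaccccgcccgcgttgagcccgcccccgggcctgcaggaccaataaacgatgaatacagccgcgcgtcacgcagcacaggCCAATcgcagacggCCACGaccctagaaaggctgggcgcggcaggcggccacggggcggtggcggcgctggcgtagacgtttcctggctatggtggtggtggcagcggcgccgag
Herpud1: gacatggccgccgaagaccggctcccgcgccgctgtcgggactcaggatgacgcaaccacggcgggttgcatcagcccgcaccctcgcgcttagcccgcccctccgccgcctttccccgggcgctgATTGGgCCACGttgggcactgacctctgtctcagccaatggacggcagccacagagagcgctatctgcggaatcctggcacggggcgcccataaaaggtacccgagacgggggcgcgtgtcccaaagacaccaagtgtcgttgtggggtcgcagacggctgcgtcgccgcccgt
The ERSE starts 43 bases before the start in Hspa5 and 65 bases before it in Xbp1. Hsp90b1 has 2, a forward one that starts 176 bases before the start and a reverse one whose near end lies 54 bases before it. The ERSE-II of Herpud1 starts 124 bases before the start. The core of the element bound by XBP1, TGACGTGG, was in 0.595% of all promoters and in 0 of the 7. The CCACG part alone, which both longer elements contain, was in all 7 and in 31.6% of all promoters. A match describes letters in a window and does not show that a factor binds there.

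The libraries held 11469290 to 27492858 reads over genes. Values given below are the deposited read numbers scaled to library depth and rescaled so that the median gene is level across libraries (scaled values). Ribosomal RNA took 1.84% to 8.55% of the reads in libraries of GDM offspring and 1.84% to 39.0% in those of lean dams' offspring. Beta cell markers were present in every library, with the summed scaled value of 10 markers between 1240350 and 2258063 in GDM offspring and between 1307391 and 1584310 in offspring of lean dams. The insulin genes Ins1 and Ins2 made up most of that sum. Acinar enzymes, which the exocrine pancreas around the islets makes, were also present in every library, and none of their 20 markers was at 0 in all. The titles also carry a letter whose meaning is not stated. It is K in GDM-HFS 3, GDM-LF 1 and GDM-LF 2, and G in the other libraries. Fits without the K libraries therefore keep only GDM-LF 3 in the GDM-LF group.

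Per kilobase of transcript, Hspa5 and Hsp90b1 were by far the most abundant of the 10, above 99.7% and 99.2% of all tested genes. Hspa5, the chaperone BiP that binds unfolded chains and holds the sensors inactive, averaged 6764 scaled units per kilobase over the 12 libraries. Hsp90b1, the ER member of the HSP90 family (GRP94), averaged 3552 units per kilobase. Xbp1 followed at 1049, Herpud1 at 662, Sel1l at 324, Atf6 at 273, Creld1 at 211, Edem1 at 155, Syvn1 at 139 and Ern1 at 111 units per kilobase. Only the step between Hsp90b1 and Xbp1 separated neighbours in every library pair, the lowest Hsp90b1 level being 2125 and the highest Xbp1 level 1350 units per kilobase. All other neighbours overlapped over the 12 libraries. Within a library, the order held in 12 of 12 libraries for Hspa5 above Hsp90b1, Herpud1 above Sel1l and Sel1l above Atf6, and in 9 of 12 for Atf6 above Creld1 and for Edem1 above Syvn1.

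The first question was how islets of GDM offspring differ from those of lean dams' offspring over both weaning diets. Atf6, the parallel stress sensor Ern1 and the ERAD genes Sel1l, Syvn1 and Herpud1 fell, by 1.46-fold to 1.72-fold. The chaperones Hspa5 and Hsp90b1, and Xbp1, Edem1 and Creld1, had lower averages in GDM offspring too but did not pass the threshold, an adjusted p of 0.05 or less in limma with Benjamini-Hochberg adjustment over all 12339 genes. Thus 5 of the 10 were called, all lower, where 5.43% of all tested genes were called lower, 6.13% higher and 11.6% in either direction. Because of that choice the count describes these genes and is no independent evidence of a change. The median log2 fold change, GDM over Lean, was -0.53 over the 10 genes and 0.03 over all tested genes. RNA of whole islets cannot tell fewer cells that express these genes from less of their RNA per cell.

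**Figure D1:**
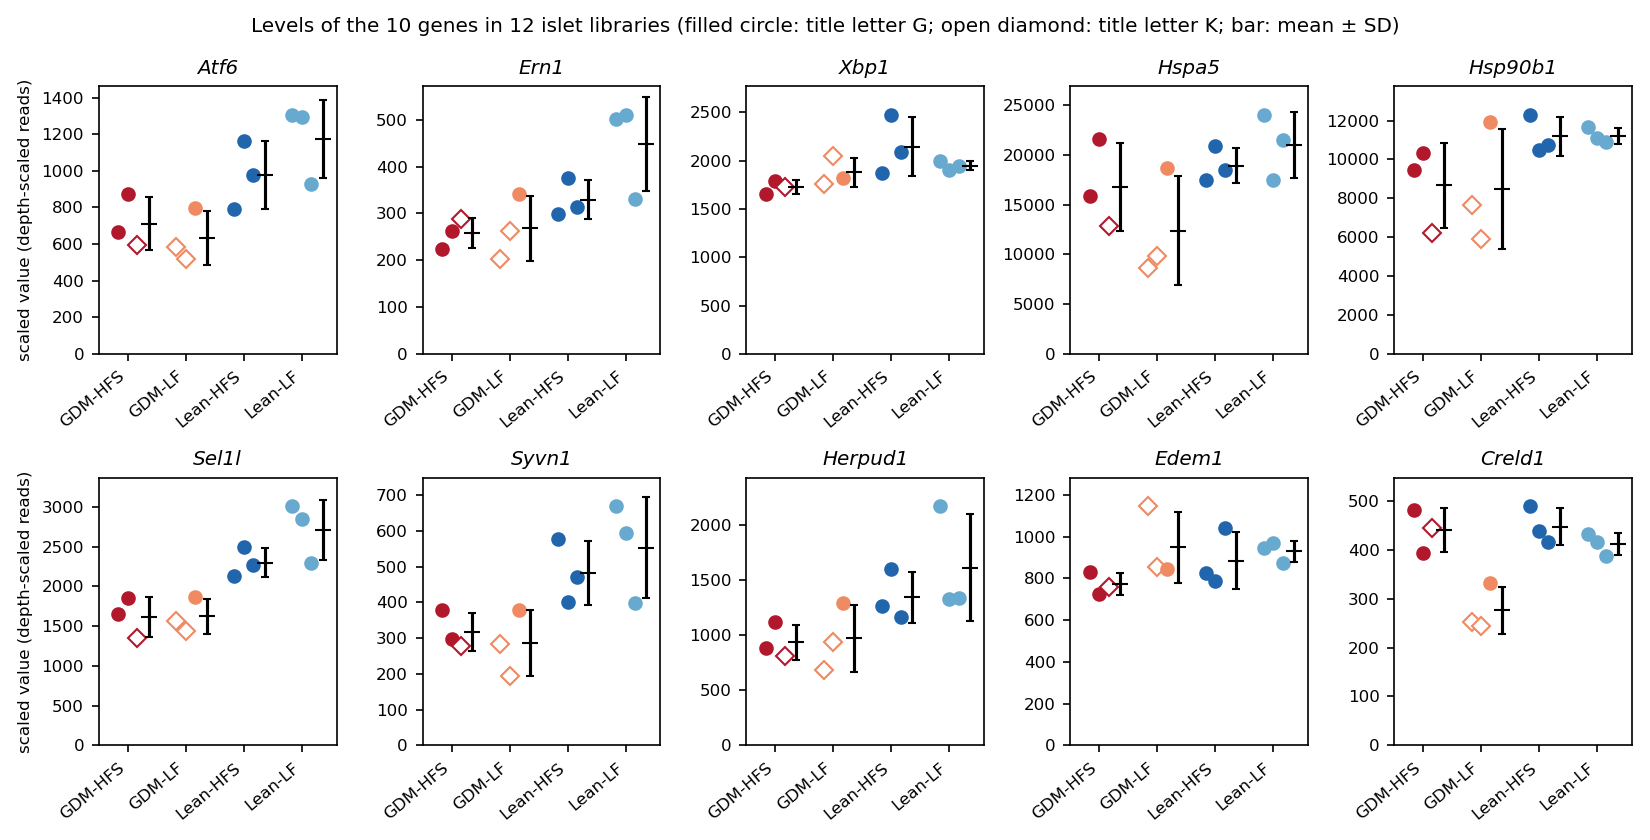
Scaled value (linear axis from 0) of each of the 10 genes in each library, by group, with filled circles for libraries titled G, open diamonds for those titled K, and bars for the mean ± SD of 3 libraries. For Sel1l and Syvn1 all 6 GDM libraries lie below all 6 Lean libraries, whereas for Edem1 the GDM and Lean libraries overlap.

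Atf6, on rn5 chromosome 13 at 93672064 to 93854844, encodes the sensor that becomes a transcription factor. It had scaled values of 667, 872 and 593 in GDM-HFS, 582, 517 and 799 in GDM-LF, 791, 1162 and 977 in Lean-HFS and 1307, 1292 and 929 in Lean-LF. On the LF weaning diet every GDM library was below every Lean library, while on HFS the highest GDM library lay above the lowest Lean one. Averaged over weaning diets, Atf6 was 1.60-fold lower in GDM offspring, a log2 fold change of -0.68 (SE 0.156, 95% interval -1.02 to -0.34, limma adjusted p = 0.0200).

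Ern1, the kinase and RNase IRE1, is on rn5 chromosome 10 at 94340405 to 94400743 and was the least abundant per kilobase. Its scaled values were 224, 262 and 288 in GDM-HFS, 203, 261 and 341 in GDM-LF, 299, 376 and 313 in Lean-HFS and 502, 511 and 331 in Lean-LF. The GDM-HFS libraries were all below the Lean-HFS ones, and on LF 1 GDM library reached above the lowest Lean library. The log2 fold change was -0.55 (SE 0.153, 95% interval -0.88 to -0.22, limma adjusted p = 0.0386).

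Xbp1, whose message IRE1 splices, is on rn5 chromosome 14 at 86423839 to 86428923. Gene sums do not separate its spliced from its unspliced form. It averaged 1724 ± 71.8 in GDM-HFS, 1878 ± 153 in GDM-LF, 2147 ± 305 in Lean-HFS and 1949 ± 43.6 in Lean-LF (SD, n = 3 each). Lean-HFS had the widest spread, and all 3 GDM-HFS libraries lay below all 3 Lean-HFS libraries, while the groups on LF overlapped. Over both diets the log2 fold change of -0.18 had a 95% interval of -0.42 to 0.06 (limma adjusted p = 0.279).

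Hspa5, on rn5 chromosome 3 at 19157874 to 19162333, had scaled values of 15859, 21580 and 12885 in GDM-HFS and 8611, 9866 and 18633 in GDM-LF. In offspring of lean dams it had 17449, 20871 and 18449 in Lean-HFS and 24024, 17447 and 21475 in Lean-LF. GDM-LF 1 and GDM-LF 2 stood low, GDM-HFS 3 was the lowest of its group, and the other 3 GDM libraries lay within the range of the Lean libraries or close to it. The log2 fold change was -0.52, with an interval that included 0 (95% interval -1.07 to 0.03, limma adjusted p = 0.185).

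Hsp90b1, on rn5 chromosome 7 at 27345730 to 27359757, behaved alike. It had 9436, 10352 and 6205 in GDM-HFS, 7655, 5913 and 11902 in GDM-LF, 12299, 10476 and 10761 in Lean-HFS and 11647, 11116 and 10871 in Lean-LF. The 6 Lean libraries were within 1 narrow range, 11195 ± 669, while the 6 GDM libraries spread widely, 8577 ± 2388 (SD, n = 6 each). The log2 fold change was -0.43 (95% interval -0.89 to 0.03, limma adjusted p = 0.188).

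Sel1l, the adaptor that holds the ERAD complex together, is on rn5 chromosome 6 at 124824092 to 124868280. It had scaled values of 1652, 1848 and 1350 in GDM-HFS, 1559, 1438 and 1866 in GDM-LF, 2132, 2500 and 2264 in Lean-HFS and 3008, 2842 and 2289 in Lean-LF. All 6 GDM libraries lay below all 6 Lean libraries, and the averages were 1619 ± 211 in GDM offspring and 2506 ± 349 in offspring of lean dams (SD, n = 6 each). With a log2 fold change of -0.63 (SE 0.129, 95% interval -0.91 to -0.35), it had the lowest limma adjusted p of the 10, 0.0145.

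Syvn1, the membrane ubiquitin ligase of the same complex, is on rn5 chromosome 1 at 228345143 to 228351661. It had 378, 298 and 278 in GDM-HFS, 283, 194 and 380 in GDM-LF, 577, 400 and 470 in Lean-HFS and 669, 594 and 397 in Lean-LF. Here too the 6 GDM libraries were below the 6 Lean libraries, though the highest GDM library and the lowest Lean library were close. In the GRCr8 annotation Syvn1 overlaps Mrpl49, Atf6 and Herpud1 each overlap a provisional protein-coding gene, Sel1l overlaps a long non-coding RNA and Ern1 a pseudogene. Reads from the shared stretches may be counted with these genes. It had the largest difference of the 10, 1.72-fold lower in GDM offspring (log2 fold change -0.78, SE 0.180, limma adjusted p = 0.0204). Sel1l and Syvn1 were the 2 of the 10 genes without overlap between dams, as were 2.32% of all tested genes.

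Herpud1, on rn5 chromosome 19 at 11027629 to 11037976, encodes a membrane protein with a ubiquitin-like domain that recruits the ligase complex, and its promoter holds the ERSE-II shown above. It had 879, 1115 and 812 in GDM-HFS, 680, 938 and 1289 in GDM-LF, 1260, 1602 and 1161 in Lean-HFS and 2167, 1329 and 1335 in Lean-LF. On each weaning diet the GDM libraries lay below the Lean libraries, by a small margin except for the high Lean-LF 1. The log2 fold change was -0.63 (SE 0.180, 95% interval -1.02 to -0.24, limma adjusted p = 0.0408).

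Edem1, a lectin of the ER that hands misfolded glycoproteins to ERAD, is on rn5 chromosome 4 at 217499485 to 217532312. It averaged 773 ± 54.1 in GDM-HFS, 949 ± 170 in GDM-LF, 885 ± 138 in Lean-HFS and 931 ± 50.1 in Lean-LF (SD, n = 3 each). Its GDM and Lean libraries overlapped on each weaning diet, and its log2 fold change was the smallest of the 10, -0.09 (95% interval -0.34 to 0.16, limma adjusted p = 0.645). Of the 4 ERAD genes of the set, Edem1 was thus the one that did not pass the threshold.

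Creld1, on rn5 chromosome 4 at 208737583 to 208747191, is needed in mice for heart development. Its values were 482, 392 and 444 in GDM-HFS, 253, 244 and 331 in GDM-LF, 489, 438 and 415 in Lean-HFS and 432, 415 and 388 in Lean-LF. The GDM-LF libraries stood below all other libraries, which lay together. Averaged over weaning diets, Creld1 had a log2 fold change of -0.31 (SE 0.109, limma adjusted p = 0.0803). Its gene overlaps Prrt3, and because reads of both strands were counted, reads from the stretch they share cannot be assigned to either. Prrt3 had a log2 fold change of -0.39 in the same comparison (limma adjusted p = 0.0963).

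**Figure D2:**
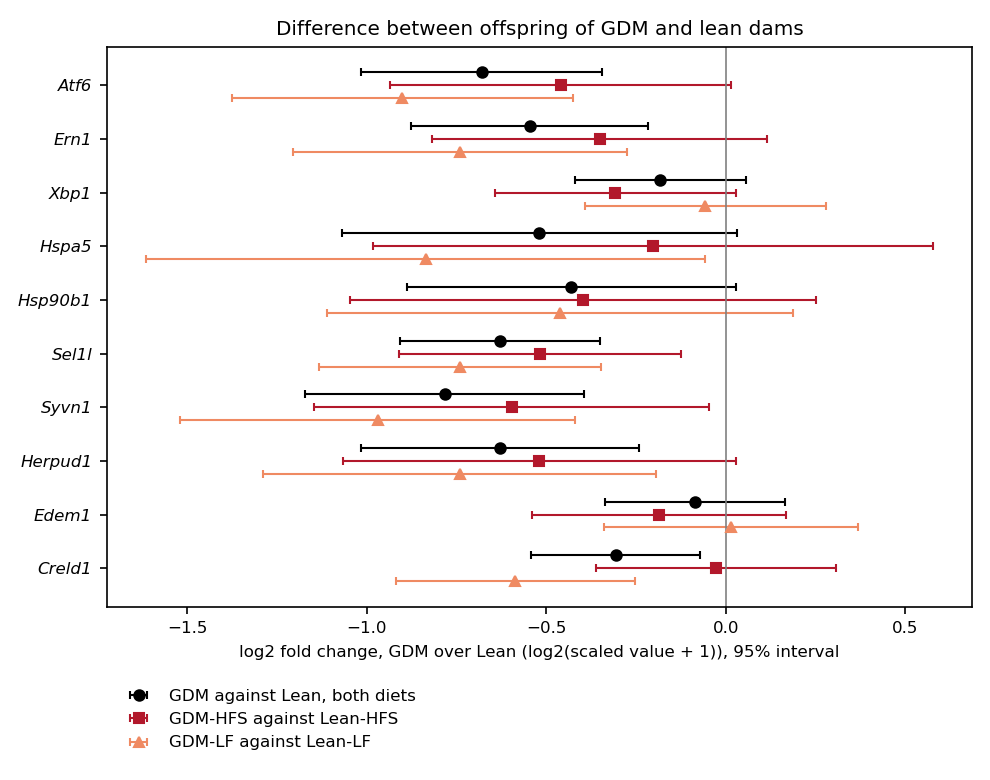
Log2 fold change, GDM over Lean, of each of the 10 genes over both weaning diets, on HFS and on LF (horizontal axis, with bars for the 95% interval from limma). Over both diets the intervals of Atf6, Ern1, Sel1l, Syvn1, Herpud1 and Creld1 lie below 0, and Creld1 has an adjusted p of 0.0803.

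Within 1 weaning diet the same comparison rests on 3 libraries a group. On HFS, 0 of the 10 genes were called, against 0.0081% of all tested genes, and all 10 had negative log2 fold changes with a median of -0.37. The sizes ran from -0.60 for Syvn1 (limma adjusted p = 0.308) and -0.52 for Sel1l (0.234) to -0.03 for Creld1 (0.954). Of the 10, 6 had every GDM-HFS library below every Lean-HFS library, Sel1l, Syvn1, Herpud1, Hsp90b1, Xbp1 and Ern1, where 12.1% of all tested genes did. On LF, 0 of the 10 were called as well, against 1.58% of all tested genes (0.729% lower and 0.851% higher), and the median log2 fold change was -0.74. The largest there were -0.97 for Syvn1 (limma adjusted p = 0.0585), -0.90 for Atf6 (0.0519), -0.84 for Hspa5 (0.161) and -0.74 for Sel1l (0.0519), and Edem1 was at 0.01 (0.966). Every GDM-LF library lay below every Lean-LF library for 5 genes, Atf6, Sel1l, Syvn1, Herpud1 and Creld1, compared with 12.4% of all tested genes. At an unadjusted p under 0.05, limma counted 2 of the 10 on HFS, where 14.2% of all tested genes were counted, and 7 of the 10 on LF, where 26.6% were. edgeR called 0 of the 10 on either diet, and DESeq2 called 0 on HFS and 7 on LF, where it called 3.57% and 14.3% of all genes it tested. Sizes on the LF diet were larger for 8 of the 10, but the difference between diets was tested as the interaction and was not called for any of them.

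The interaction, the GDM difference on HFS minus that on LF, was 0.63 for Hspa5 (SE 0.512, limma adjusted p = 0.828), the largest of the 10. It was 0.56 for Creld1 (SE 0.219, limma adjusted p = 0.784) and -0.25 for Xbp1, the lowest. limma called 0 of all tested genes for the interaction (730 at an unadjusted p under 0.05), as did edgeR and DESeq2, so the background was 0%. Without the 3 K libraries GDM-LF rested on GDM-LF 3 alone. The interaction was then 0.13 for Hspa5, 0.27 for Creld1, the largest, and 0.20 for Atf6, and it changed sign for Herpud1, Ern1 and Hsp90b1. With all libraries the 95% interval for Hspa5 ran from -0.47 to 1.74, so a difference between the diets of either sign lies within it.

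The next question was what the pup's own HFS diet did. In offspring of GDM dams, HFS over LF ran from -0.28 for Edem1 to 0.68 for Creld1 on the log2 scale. Creld1 averaged 439 ± 44.8 in GDM-HFS and 276 ± 47.9 in GDM-LF (SD, n = 3 each), and every GDM-HFS library was above every GDM-LF library. Edem1 separated the other way, with every GDM-HFS library below every GDM-LF library. The share of all tested genes without overlap in this comparison was not counted. For Creld1 limma gave an adjusted p of 0.470 (SE 0.155), whereas DESeq2 on the recovered reads gave an adjusted p of 0.0417. Its overlapping partner Prrt3 had a log2 fold change of 0.62 (limma adjusted p = 0.492). Hspa5 followed at 0.49 (limma adjusted p = 0.654), and without the 3 K libraries it was at -0.0103, with Atf6, Syvn1 and Hsp90b1 changing sign as well. That fit kept only GDM-LF 3 in the GDM-LF group. In offspring of lean dams the 10 genes ran from -0.42 for Ern1 to 0.13 for Xbp1, each with a limma adjusted p of 1. Averaged over dams they ran from -0.23 for Ern1 to 0.40 for Creld1, with no limma adjusted p under 0.883. For these 3 comparisons limma called 0 of the 10 and 0% of all tested genes, with 1188 genes in offspring of GDM dams, 269 in offspring of lean dams and 611 averaged over dams at an unadjusted p under 0.05. edgeR called 0 in each as well, and DESeq2 called 33 genes (0.279%) in offspring of GDM dams, 1 (0.00814%) in offspring of lean dams and 2 (0.0163%) averaged over dams.

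The 5 calls over both diets were not equally firm. Of 15 other ways of processing, Syvn1 was called in 13, Atf6 in 12, Sel1l in 11, Herpud1 in 8 and Ern1 in 7. When each library was left out in turn, Sel1l was called in 10 of 12 fits, Atf6 in 9, Syvn1 in 8, Herpud1 in 3 and Ern1 in 2. Without Lean-LF 1 or without Lean-LF 2, the 2 libraries with the highest Atf6, Sel1l and Ern1, 0 of the 10 were called. Without GDM-HFS 3 the count was 1, without Lean-HFS 1 it was 2, and without GDM-HFS 1, GDM-HFS 2, GDM-LF 1, GDM-LF 2 or Lean-HFS 2 it was 3. Without GDM-LF 3 it was 6. The count over all tested genes moved in the same way, to 207 without Lean-LF 1 and 183 without Lean-LF 2, compared with 1426 over all libraries. Log2 fold changes of the 5 genes stayed below 0 in every one of these fits.

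**Figure D3:**
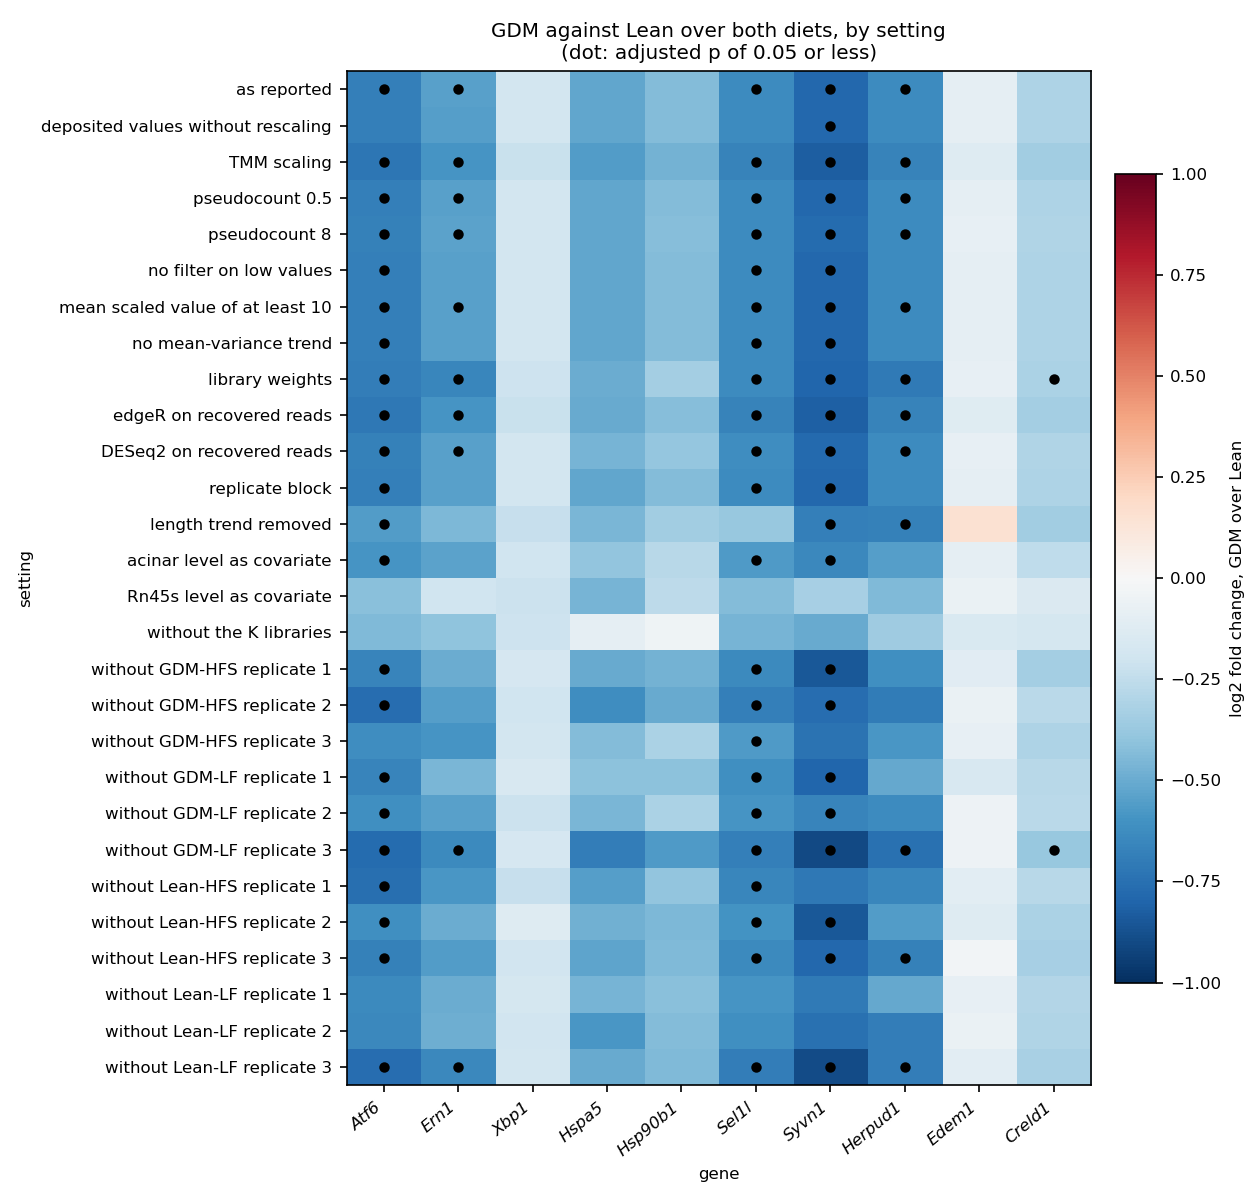
Log2 fold change, GDM over Lean averaged over weaning diets (colour scale), of the 10 genes (columns) in the reported fit and 27 other fits (rows), with a dot where the adjusted p is 0.05 or less. Colour stays on the lower side for the 5 called genes throughout, while no gene has a dot without the K libraries, with the Rn45s covariate, without Lean-LF 1 or without Lean-LF 2.

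The K and G libraries of GDM offspring differed in these genes. In Atf6, Sel1l, Syvn1, Hspa5 and Hsp90b1 all 3 K libraries were below all 3 G libraries of GDM offspring, which makes 5 of the 10, where 7.53% of all tested genes did so. Weaning diet is partly mixed with the letter, because most K libraries are GDM-LF and most of these G libraries are GDM-HFS. Fits without the K libraries kept only GDM-LF 3 in the GDM-LF group. Hspa5 averaged 10454 in the K libraries, 18691 in the G libraries of GDM offspring and 19952 in offspring of lean dams. Hsp90b1 averaged 6591 in the K libraries, 10563 in the G libraries of GDM offspring and 11195 in offspring of lean dams. For these 2 chaperones the G libraries of GDM offspring were thus close to the Lean libraries, and without the K libraries the log2 fold changes were -0.09 for Hspa5 and -0.04 for Hsp90b1. Atf6 and Sel1l kept an intermediate level in the G libraries of GDM offspring. Atf6 averaged 564 in the K libraries, 779 in the G libraries of GDM offspring and 1076 in offspring of lean dams. Without the K libraries the log2 fold changes were -0.44 for Atf6 (limma adjusted p = 0.263), -0.46 for Sel1l (0.203) and -0.51 for Syvn1 (0.242), and 0 of all tested genes were called. The part of the letter in the dam difference was not tested.

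Several measures of the libraries moved with the dam. The median deviation of the 10 genes from their mean over all libraries was -0.14, -0.07 and -0.42 in GDM-HFS, -0.49, -0.57 and -0.04 in GDM-LF, 0.08, 0.29 and 0.16 in Lean-HFS and 0.56, 0.20 and 0.11 in Lean-LF on the log2 scale. A length measure, the median deviation of transcripts under 1000 bases minus that of transcripts over 4000 bases, was 0.29, 0.40 and 0.74 in GDM-HFS, -0.07, 0.56 and 0.14 in GDM-LF, -0.31, -0.10 and -0.18 in Lean-HFS and -0.72, -0.73 and -0.08 in Lean-LF. Short transcripts were thus relatively higher in most GDM libraries, and Lean-LF 1 and Lean-LF 2 stood lowest. With the trend on transcript length removed from each library, 3 of the 10 genes were called. These were Syvn1 (log2 fold change -0.68, limma adjusted p = 0.0380), Herpud1 (-0.68, 0.0481) and Atf6 (-0.56, 0.0490), while the long transcript of Sel1l gave -0.38 (0.0821), Ern1 gave -0.45 (0.0900) and Edem1 turned to 0.15 (0.351).

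The precursor of ribosomal RNA, listed as Rn45s, had log2 levels of 14.4 to 18.0 in GDM offspring and 13.7 to 21.5 in offspring of lean dams. With its level as a covariate, 0 of the 10 genes and 0 of all tested genes were called, and the log2 fold changes were -0.42 for Atf6, -0.43 for Sel1l and -0.33 for Syvn1. Of the 6 Lean libraries, 5 had more Rn45s than any GDM library, all but Lean-LF 3. Acinar RNA varied as well. The summed scaled value of the 20 acinar markers ran from 114851 to 230577 in GDM-HFS, 41262 to 725488 in GDM-LF, 44418 to 242348 in Lean-HFS and 29588 to 83604 in Lean-LF. Of the 20, 18 were higher in GDM offspring and 0 were called. Of all tested genes 47.3% had negative log2 fold changes and 11.6% were called. Acinar cells also express these 10 genes. With the acinar level as a covariate, Sel1l (log2 fold change -0.56, limma adjusted p = 0.0333), Atf6 (-0.59, 0.0480) and Syvn1 (-0.65, 0.0482) were called. The part of length, ribosomal RNA and acinar RNA in the dam difference was not otherwise tested.

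Markers of the other cells of an islet preparation were set beside the same comparison, in which 5.43% of all tested genes fell and 6.13% rose. Negative log2 fold changes were found for 47.3% of all tested genes. Of 10 beta cell markers 1 fell, Nkx6-1, and 0 rose, with a median log2 fold change of -0.18. Of 7 endothelial markers 2 fell and 0 rose, with a median of -0.69. All 4 delta and PP cell markers were higher in GDM offspring, 2 rose and the median was 0.78. Of 7 duct markers 1 rose and 0 fell, with a median of 1.18. None of the alpha cell (median 0.21), macrophage (-0.33) and stellate cell or fibroblast markers (0.50), 7 each, was called, nor was the 1 B and plasma cell marker abundant enough to be tested. Summed delta and PP cell markers ran from 7812 to 28574 in GDM offspring and from 3002 to 20753 in offspring of lean dams, and summed endothelial markers from 410 to 961 in GDM offspring and from 617 to 1403 in offspring of lean dams. Summed duct markers ran from 516 to 1750 in GDM offspring and from 195 to 807 in offspring of lean dams. The part of these cells in the differences of the 10 genes was not tested.

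**Figure D4:**
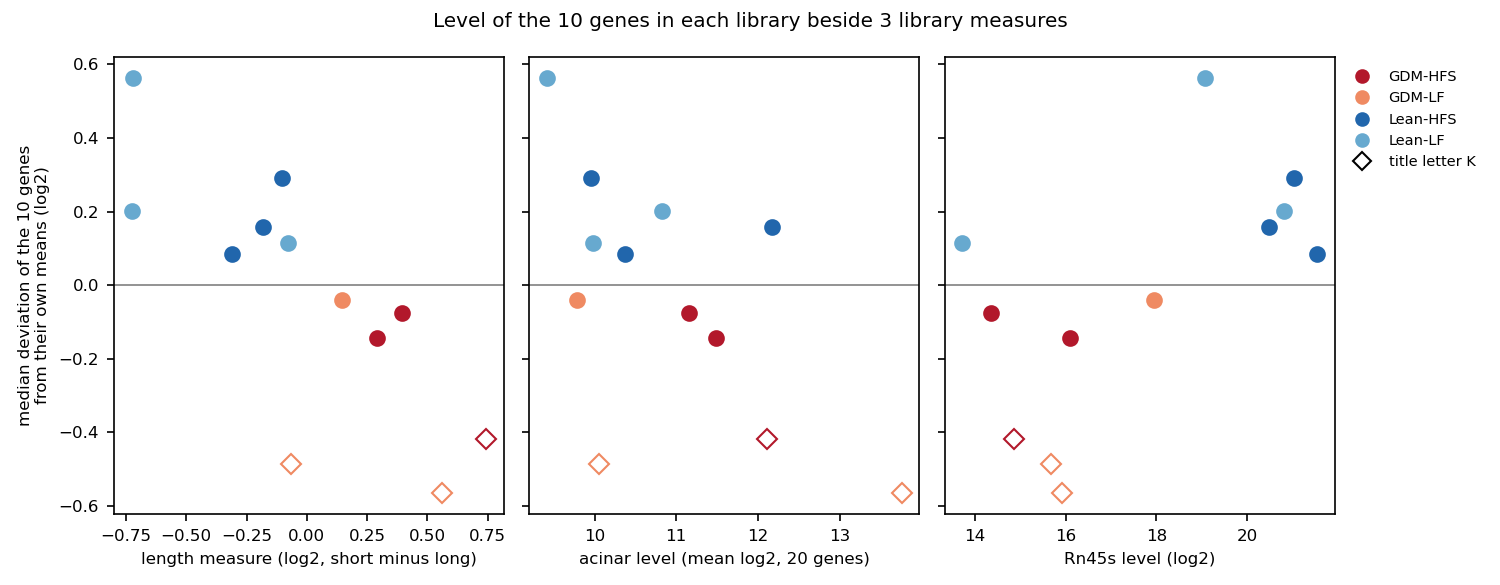
Median deviation of the 10 genes in each library (vertical axis, log2) against the length measure, the acinar level and the Rn45s level of that library (horizontal axes, log2), coloured by group. Lean-LF 1, with the highest deviation of 0.56, and Lean-LF 2 have the lowest length measures, and the K libraries GDM-LF 1 and GDM-LF 2 have the lowest deviations.

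The 10 genes did not all vary together. Over the 45 pairs, Pearson's r of log2 values over the 12 libraries had a median of 0.57 and ran from -0.39, for Edem1 with Creld1, to 0.97, for Atf6 with Sel1l. With group means removed the median was 0.39, and Atf6 with Sel1l was at 0.95. The libraries share their depth, letter and length differences, so these values only describe the set. Of 7289 genes compared, those most like Atf6 over the 12 libraries were Sel1l (r = 0.965), Cerk (0.964), Igsf1 (0.960), Fkbp5 (0.956) and Robo1 (0.951). Those most like Hspa5 were Crebl2 (0.941), Fam110b (0.933), Fbxo44 (0.928), Rnf185 (0.921) and Dnaja3 (0.919). The closest inner pair was thus a sensor and an ERAD adaptor, and none of the other members was among the 5 genes most like Hspa5.

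Other genes of the same pathways were followed as 5 lists, over both weaning diets. In this comparison 5.43% of all tested genes were called lower and 6.13% higher. Among the other sensors and processing factors 3 of 12 fell and 0 rose, all 3 membrane-bound transcription factors that are cut in the Golgi as ATF6 is. Creb3l2 averaged 228 in GDM-HFS, 195 in GDM-LF, 341 in Lean-HFS and 382 in Lean-LF (log2 fold change -0.77, limma adjusted p = 0.0122). It was also the only gene of the 5 lists called on LF alone (-0.97, limma adjusted p = 0.0477). Atf6b, the close relative of Atf6, averaged 217 in GDM-HFS, 197 in GDM-LF, 383 in Lean-HFS and 374 in Lean-LF (-0.86, 0.0148). Creb3l1 had a log2 fold change of -1.14 (limma adjusted p = 0.0191). Creb3, another factor of this kind in the list, went the other way and was not called. It averaged 594 in GDM-HFS, 499 in GDM-LF, 449 in Lean-HFS and 470 in Lean-LF. The median of this list was -0.16.

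Among other chaperones and folding enzymes 1 of 22 fell, Uggt1, which rechecks the folding of glycoproteins (log2 fold change -0.53, limma adjusted p = 0.0477), 0 rose, and the median was -0.03. Among other ERAD genes 1 of 24 fell, Derl3, a member of the derlin family of ER membrane proteins (-0.94, limma adjusted p = 0.0280), and 0 rose. Of these 24 genes 20 had negative log2 fold changes, as had 47.3% of all tested genes, and the median was -0.22. Calls of 1 of 22 and 1 of 24 genes are near the 5.43% of all tested genes called lower. In the PERK list 3 of 14 fell and 0 rose, and 7 of the 14 had negative log2 fold changes. The genes that fell were Chac1 (-0.93, limma adjusted p = 0.0116), Sesn2 (-0.95, 0.0146) and Asns (-0.60, 0.0223). They are targets of the factor ATF4, as are Ddit3 and Trib3 of the same list, which were not called. The median of the PERK list was -0.02.

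The genes that carry new chains into the ER moved both ways. Of 22 translocon and signal peptidase genes 4 rose and 2 fell, and the median was 0.19. Those that rose were Sec61g (log2 fold change 0.89, limma adjusted p = 0.0238), Ssr4 (0.61, 0.0244), Sec11c (0.63, 0.0284) and Srp14 (0.68, 0.0291). Sec61g, the smallest subunit of the channel, averaged 2167 in GDM-HFS, 1794 in GDM-LF, 1152 in Lean-HFS and 1045 in Lean-LF. Those that fell were Srp68 (-0.53, 0.0430) and Sec61a1, the subunit that forms the channel (-0.47, 0.0479). The genes of this list have short transcripts, with a median length of 1210 bases, and with the trend on length removed 0 of the 22 were called and Sec61g had a log2 fold change of 0.26. After that step the falls numbered 3 each in the sensor and PERK lists, 2 among the other ERAD genes and 0 among the other chaperones. Without the K libraries 0 genes of any of the 5 lists were called.

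**Figure D5:**
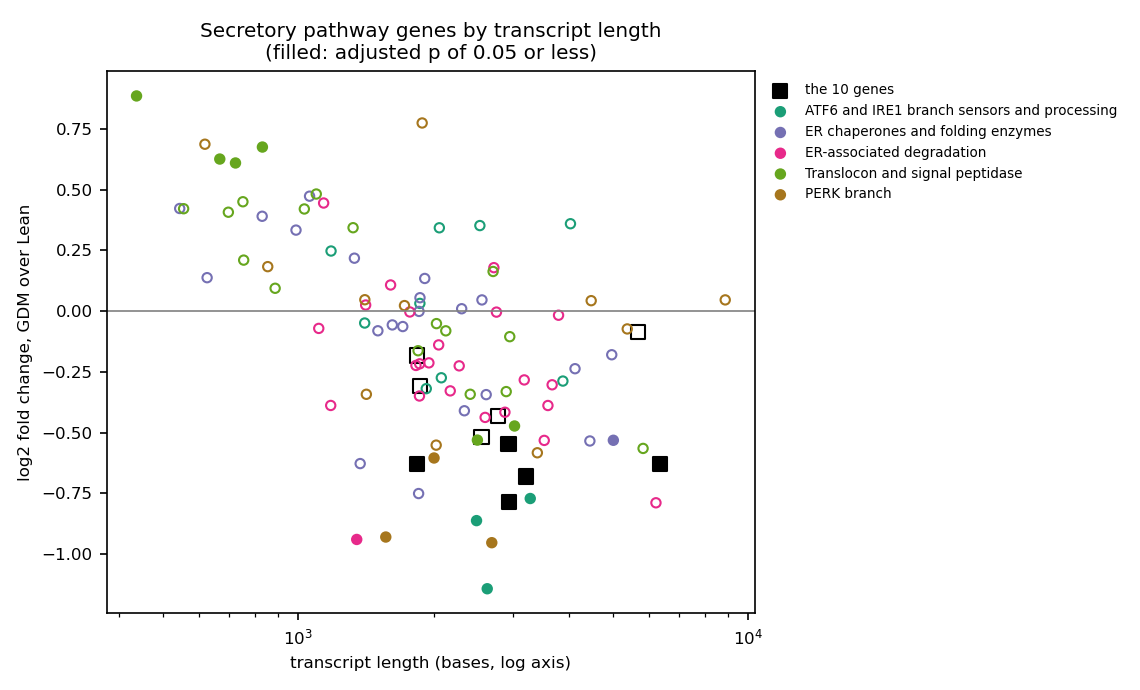
Log2 fold change, GDM over Lean averaged over weaning diets, against transcript length in bases (log axis) for the 10 genes (squares) and the genes of the 5 lists (other symbols), filled where called. The 4 genes that rose are short translocon and signal peptidase genes, and the 10 genes all lie below 0.

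The promoter elements were also looked for in these lists. Of the 78 listed genes with a RefSeq promoter, 8 held an ERSE or ERSE-II. Among these 8, Derl3 alone was called over both diets, Creld2 (log2 fold change 0.22) and Dnajb11 (0.06) were higher, and Calr was at -0.0009. The 4 genes printed above, chosen like the lists with earlier results known, all had negative log2 fold changes, and Herpud1 was called. Together this makes 12, of which 2 were called lower and 10 had negative log2 fold changes. Of all tested genes 5.43% were called lower and 47.3% had negative log2 fold changes. Whether holding an element goes with a difference was not tested. Hspa5, Hsp90b1 and Xbp1, which hold the ERSE, were not called. Of the 3 genes whose windows hold neither element, Sel1l and Syvn1 were called and Edem1 was not.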

How the data were processed

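Hand-picked islets from collagenase-digested pancreas gave the RNA, which was depleted of ribosomal RNA with Ribo-Zero before strand-specific library preparation with NEBNext Ultra II Directional reagents, per the labels' protocols. The aligner was STAR 2.5.1b and the counter HOMER 4.9, per the submitters' processing notes, which list DESeq2 with no version. Per the file headers, exon reads of both strands were summed per gene on rat build rn5. The authors deposited a signal that is scaled to sequencing depth. Its header names FPKM, yet within a library all values are whole multiples of the same step, whatever the length of the gene. Dividing by the step recovered read numbers, which were whole to within 0.1 of a read in 100% of the cells checked (those of 1000 reads or fewer).

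From these values each library was divided by its median ratio to the geometric mean over the 11337 genes above 0 in all libraries. The 12339 genes that averaged at least 1 scaled unit were tested with limma 3.58.1 in R 4.3.3 on log2(scaled value + 1), which understates changes of low genes. The fit had 1 mean per group over all 12 libraries and a mean-variance trend, and Benjamini-Hochberg adjustment ran over all tested genes, separately in each of 7 comparisons. edgeR 4.0.16 (quasi-likelihood) and DESeq2 1.42.0 served as alternative tests of the recovered reads, beside other scalings, pseudocounts, filters, library weights, a replicate block, covariates and left-out libraries. Fits were tested on simulated data.

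The 10 genes, the pathway lists and the marker lists were chosen with earlier results of these data known. The genes are all named. Of the other genes of a list at most 4 per direction are named, those called with the lowest adjusted p. Creb3, Ddit3, Trib3, Creld2, Dnajb11 and Calr, which were not called, are named beside them. For Atf6 and Hspa5 the 5 genes of a mean scaled value of at least 50 with the highest Pearson r are named, without provisional symbols.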

Additional observations from a re-analysis of the deposited data

How the results depend on the processing

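Over both weaning diets 5 of the 10 genes were called. The count was 5 with TMM scaling, pseudocounts of 0.5 and 8, and a filter at 10, and it was 1 on deposited values without rescaling. It was 3 with no filter on low values, with no mean-variance trend, with the replicate block, with the length trend removed and with the acinar level as covariate. With the Rn45s level as covariate or without the K libraries it was 0, and when 1 library was left out it ran from 0 to 6. On LF, where 0 were called, the count was 4 on deposited values, 2 with TMM scaling, 2 with a filter at 10, 6 with library weights and 7 with DESeq2, and 0 to 7 with 1 library left out. Over all tested genes on LF the calls numbered 195 in the reported fit, 486 on deposited values, 312 with TMM scaling, 362 with the filter, 1768 with library weights and 1684 with DESeq2. For HFS in offspring of GDM dams, DESeq2 called 1 of the 10 genes, Creld1, and 33 (0.279%) of all genes it tested.

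Same-numbered libraries did not pair. Over 18 such pairs the correlation of their deviations ran from -0.499 to 0.201, and 5 libraries had their best partner in a library with their own number.

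Some log2 fold changes changed sign. Edem1 over both diets was 0.15 with the length trend removed. On LF, Hsp90b1 was 0.0868 without the K libraries, and Edem1 was -0.21 on deposited values, -0.0299 with TMM scaling, -0.0156 with edgeR, -0.14 without the K libraries and -0.129 to 0.0893 with 1 library left out. On HFS with the Rn45s covariate, Syvn1 was 0.14, Ern1 0.22 and Creld1 0.23. On deposited values on HFS, Hspa5 was 0.0183, Edem1 0.0343 and Creld1 0.19. On HFS Edem1 was also 0.0388 with the length trend removed, and Creld1 was 0.0164 with the acinar covariate and -0.0959 to 0.0515 with 1 library left out. Rescaling moved the median log2 fold change of all tested genes. On deposited values it was -0.17 for GDM on LF, 0.20 for GDM on HFS, -0.35 for HFS in offspring of lean dams and 0.42 for the interaction, against 0.05, -0.0089, 0.0025 and -0.0092 in the reported fit. On deposited values Xbp1 was -0.24 for HFS in offspring of lean dams and 0.19 for the interaction. Without the K libraries, HFS in offspring of GDM dams was -0.0103 for Hspa5, -0.0672 for Atf6, -0.18 for Syvn1 and -0.27 for Hsp90b1, and the interaction was -0.14 for Herpud1, -0.0712 for Ern1 and -0.26 for Hsp90b1. For HFS averaged over dams Syvn1, Hspa5 and Hsp90b1 changed sign. Fits without the K libraries kept only GDM-LF 3 in the GDM-LF group. The causes were not tested.

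On LF the calls over all tested genes were 105 higher and 90 lower, and 80 and 406 on deposited values. Over both diets 756 were called higher and 670 lower. The split was 429 and 245 on deposited values, 413 and 258 with no mean-variance trend, 216 and 312 with the length trend removed, 410 and 233 with the acinar covariate, 1271 and 1297 with library weights and 1162 and 1075 with DESeq2.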
